A study of Mus musculus with 16 samples.

Results

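The small RNA of Dicer knockout cells given human Dicer with a mutated RNase IIIA site (D1320A) was compared with that of knockout cells given a fluorescent control. The libraries were taken by their labels, 2 for each group and 4 of the 16 in the series. All cells were mouse mesenchymal stem cells of strain C57BL/6. The knockout group was Dicer -/- cells transfected with mCherry, a red fluorescent protein, and the D1320A group was Dicer -/- cells transfected with the RNase IIIA mutant of human Dicer. Reference groups of 2 libraries each were Dicer f/f cells with mCherry (wild type), Dicer -/- cells with human Dicer (hsDicer), with D1709A, in which the RNase IIIB site is mutated, and with the double mutant D1320A/D1709A. The fits over all 16 libraries also took in Dicer -/- cells with the helicase mutant K70A and the PAZ mutant Y971A/Y972A, 2 libraries each. A human enzyme therefore acted on mouse precursors, and the promoter, dose and time of the transfection, and whether the Dicer -/- cells were 1 clone, are not known from the labels. The labels do not say that replicates came from separate cultures, so p-values measure only the spread between these samples.

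Dicer cuts the hairpin precursor of a miRNA on both strands near the loop. Its RNase IIIB domain cuts the strand of the 5p arm and its RNase IIIA domain the strand of the 3p arm, while the outer ends of the hairpin have already been made by Drosha. With RNase IIIA disabled, a cut by RNase IIIB alone would part the hairpin into a free 5p arm and a longer piece that carries the loop joined to the 3p arm. Both pieces were looked for. A 5p arm is called minor here where it gave less than 50% of its hairpin's reads over the wild-type libraries, with 20 or more such reads; arms of this kind are often called passenger strands.

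The libraries of both groups held 10331036 to 15967421 inserts of 15 nt or more, and levels are reads per 1000000 of these (CPM). miRNA reads were 4.61% and 2.16% of inserts with D1320A and 1.54% and 0.293% in the knockout. Products of the 5′ adapter made up 24.4% and 11.7% of inserts with D1320A and 1.98% and 7.30% in the knockout, and with them left out of the library size 7 arms were called in place of the 5 given below. Reads of the targeted gene Dicer1 stood at 22.1 and 16.4 CPM with D1320A and at 0.0968 and 0.0626 CPM in the knockout. They check nothing about the deletion, since wild type gave 0 and 0.0488 CPM and a short read can fit the human and the mouse gene alike. miRNAs known from mesenchymal cells (miR-199, miR-214, miR-143, miR-145 and miR-140) summed on the 5p side to 4062 and 4229 CPM in wild type, where the 5p arms of the muscle miRNAs and of the liver miRNA miR-122 stood at 0. The blood cell list summed there to 376.5 and 181.1 CPM and the neuron list to 372.5 and 602.2 CPM, and no 5p arm of the pluripotent cell list was tested. The 3p arms in wild type summed to 7316 and 10030 CPM for the mesenchymal list and 0.231 and 112.6 CPM for the muscle list. For an endothelium list they summed to 66.02 and 298.5 CPM, for the neuron list to 0 and 257.9 CPM and for the blood cell list to 0 and 11.3 CPM. The 5p sum of the mesenchymal list was 641.0 and 642.5 CPM with D1320A against 18.004 and 89.0 CPM in the knockout (3 of 6 arms above both knockout libraries), and that of the blood cell list 133.4 and 20.7 against 2.61 and 3.01 CPM (2 of 4 arms), beside 126 of all 277 5p arms; the part of a shift in cell types was not tested. In such bulk samples fewer cells of a type and less RNA per cell cannot be told apart.

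Many of the 277 5p arms tested had no read in the replicate 1 libraries other than D1320A. These arms numbered 184 in wild type, 171 with hsDicer, 185 in the knockout, 188 with the double mutant and 173 with D1709A. In replicate 2 they numbered 61, 76, 149, 136 and 150 in turn. With D1320A they numbered 91 in replicate 1 and 116 in replicate 2. The cause was not tested. Fragments outside hairpins that were abundant (at least 2000 reads) in wild type of replicate 1 and absent from every replicate 2 library numbered 323, and knockout replicate 1 held all of them, D1320A replicate 1 136. For 102 arms as abundant in that wild-type library, the knockout library had a median of 0.285% of its reads. The same count made for replicate 2 gave 153 fragments, of which knockout replicate 2 held 149 and D1320A replicate 2 140. For 127 arms as abundant in wild type of replicate 2, knockout replicate 2 had a median of 0.393% of its reads. What such reads add to the knockout levels was not tested. The calls of single arms, the summed levels and the overlaps that rest on knockout replicate 1 are given without it below.

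The mature sequences of the 4 arms that rose and of 5 other minor arms are shown because the results turn on them. They are RefSeq's (GRCm38.p6), with the seed (bases 2 to 8), which pairs with target transcripts, in capitals.
miR-99b-5p: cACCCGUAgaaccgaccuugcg
miR-31-5p: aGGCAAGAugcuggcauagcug
let-7c-5p: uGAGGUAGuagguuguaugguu
miR-24-2-5p: gUGCCUACugagcugaaacagu
miR-22-5p: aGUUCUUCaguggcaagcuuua
miR-193a-5p: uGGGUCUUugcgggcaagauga
miR-365-2-5p: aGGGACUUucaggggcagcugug
miR-23a-5p: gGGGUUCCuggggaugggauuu
miR-29a-5p: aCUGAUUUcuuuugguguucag
let-7c, let-7b, let-7i and let-7d share the seed GAGGUAG, and no 2 of the other arms printed here share one. In GRCm38 Mir99b occupies chr17:17830188-17830257 on the plus strand, within a Spaca6 intron. Mir31 occupies chr4:88910557-88910662 on the minus strand, within an exon of AL805899.1. Mir24-2 (chr8:84208815-84208921) and Mir23a (chr8:84208518-84208592) lie on the plus strand outside other annotated genes of that strand. Mir22 (chr11:75463716-75463810, plus strand) overlaps exons of Mir22hg and Tlcd2, and Mir193a (chr11:79711969-79712034, plus strand) and Mir365-2 (chr11:79726400-79726511, plus strand) are neighbours outside other annotated genes of that strand.

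Cells with D1320A, whose RNase IIIB site is not mutated, held more reads of 5p arms than the knockout. All 5p arms together reached 44820 and 20887 CPM with D1320A (replicates 1 and 2) and 10667 and 1928 CPM in the knockout. Both D1320A libraries lay above both knockout libraries (exact permutation test, 2-sided, p = 0.333, the smallest that 2 against 2 libraries allow). The double mutant, which has neither site, gave 5738 and 2586 CPM, and hsDicer 188250 and 60186 CPM. The 3p arms together gave 1231 and 745.1 CPM with D1320A and 4773 and 1004 CPM in the knockout, and these groups overlapped (exact permutation p = 0.667). Within replicate 2 alone the 5p sum was 20887 against 1928 CPM, and the 3p sum 745.1 against 1004 CPM. 5p arms gave 97.3% and 96.6% of miRNA reads with D1320A and 69.1% and 65.8% in the knockout, without overlap (exact permutation p = 0.333). This share does not depend on the scaling between libraries. The share and the 3p sums leave out 3p strands still joined to the loop in reads too long to be counted as miRNA reads. Such loop products, described below, gave 41557 and 14231 CPM with D1320A and 4.74 and 21.04 CPM in the knockout.

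**Figure D1:**
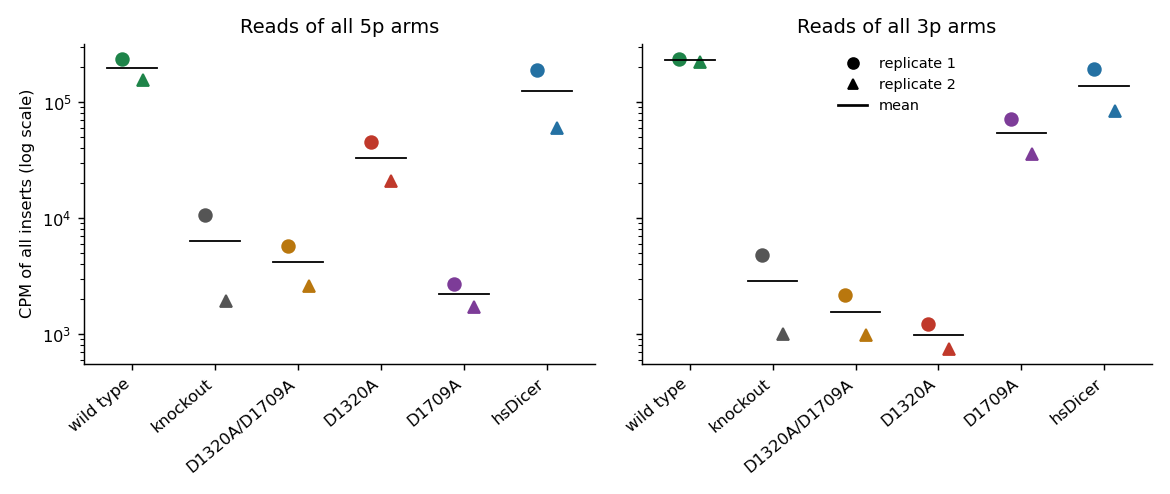
Summed CPM of all 5p arms (left) and all 3p arms (right) in each library of 6 groups, on a log axis, with circles for replicate 1, triangles for replicate 2 and a line for the mean of 2. On the 5p side both D1320A libraries (44820 and 20887 CPM) lie above both knockout libraries, and on the 3p side they lie at 1231 and 745.1 CPM, in or under the range of the knockout.

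Among single arms, 4 5p arms rose and 1 3p arm fell. Of 539 arms tested with edgeR's quasi-likelihood test over all 16 libraries (Benjamini-Hochberg adjusted p under 0.05), 0.928% were called, and 0.742% were called higher, all of them among the 277 5p arms. This fit takes its spread from all groups and from a trend shared by all arms, and with only the D1320A and knockout libraries in the fit 74 arms were called higher (13.7%), 70 of them 5p arms, and 1 arm lower. Of the 4 5p arms called over all libraries, only miR-24-5p was also called in that smaller fit (edgeR, adjusted p = 0.0284), while miR-99b-5p (0.101), miR-31-5p (0.152) and let-7c-5p (0.286) were not, nor was miR-22-3p (0.495). Without regard to a model, both D1320A libraries lay above both knockout libraries for 28.9% of the arms tested, for 126 of the 277 5p arms and for 30 of the 262 3p arms. The median log2 change was 4.86 over 5p arms, 0 over 3p arms and 0.97 over all arms. TMM and DESeq2 move this last median to 0. With TMM no 5p arm was called higher and 4 were called lower, and with DESeq2 6 were called higher and 6 lower; of 3p arms, 4 were called lower with TMM, and 4 higher and 29 lower with DESeq2.

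miR-99b-5p, of the miR-99 and miR-100 family, stood at 4479 and 1770 CPM with D1320A and at 40.3 and 21.7 CPM in the knockout. Every D1320A value lay far above both knockout values. The log2 change was 6.66 (SE 1.47), adjusted p = 0.00165 by edgeR. miR-31-5p, a miRNA known from fibroblasts and epithelia, stood at 4193 and 2620 CPM against 14.5 and 88.7 CPM, 6.04 higher on the log2 scale (SE 1.54; edgeR, adjusted p = 0.0163). let-7c-5p, of a family that holds back proliferation, stood at 3672 and 881.0 CPM against 107.9 and 103.7 CPM and rose by 4.43 on the log2 scale (SE 1.19), adjusted p = 0.0275 by edgeR. miR-24-5p, the minor arm of miR-24, stood at 2240 and 1303 CPM against 7.94 and 10.5 CPM, 7.59 higher on the log2 scale (SE 2.12; edgeR, adjusted p = 0.0380). None of the 4 groups of values overlapped. The fall was that of miR-22-3p, a 3p arm abundant in these cells with Dicer, at 235.4 and 135.2 CPM with D1320A against 2870 and 465.7 CPM in the knockout, for a log2 change of -3.17 (SE 0.63; edgeR, adjusted p = 0.000319).

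The calls of single arms rest on single libraries. Without knockout replicate 1 no arm was called by edgeR, and the log2 change of miR-22-3p was -1.33 (adjusted p = 1), while those of miR-24-5p, miR-99b-5p, miR-31-5p and let-7c-5p were 7.40, 7.17, 5.26 and 4.46. Without knockout replicate 2 only miR-22-3p was called, although the 4 5p arms kept log2 changes of 4.40 to 7.87. Without D1320A replicate 1, miR-99b-5p and miR-22-3p were called, and without D1320A replicate 2, miR-99b-5p, miR-31-5p and let-7c-5p.

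miR-21a-5p, known as an oncogenic miRNA, was the 5p arm of highest level with D1320A but was not called. It stood at 5038 and 2964 CPM with D1320A and at 3274 and 816.8 CPM in the knockout, so that the groups overlapped, and its log2 change of 0.97 (SE 0.78) turned to -2.07 under TMM and -2.87 under DESeq2. The overlap rests on knockout replicate 1, and without that library the log2 change was 2.29 and still not called. Its ends differed more than its level: 57.7% and 45.9% of its reads ended at the usual 3′ end with D1320A, against 6.54% and 11.6% in the knockout and 67.3% and 59.2% with hsDicer. In the knockout 82.8% and 85.2% of its reads ran past that end. let-7i-5p also overlapped, at 2599 and 927.0 CPM against 1440 and 22.1 CPM, with a log2 change of 1.27 that TMM turned to -1.77 and DESeq2 to -2.61. This overlap too rests on knockout replicate 1, without which the log2 change was 6.32 (edgeR, adjusted p = 0.569). In knockout replicate 1, 95.3% of let-7i-5p reads ran past the usual 3′ end, against 13.9% in knockout replicate 2 and 0.341% and 0% with D1320A.

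The other 5p arms of high level did not overlap with the knockout and did not pass the test over all 16 libraries. They were let-7b-5p (2248 and 698.6 CPM against 68.0 and 20.04 CPM, adjusted p = 0.0512 by edgeR), miR-96-5p (1875 and 740.3 against 14.1 and 46.2 CPM), miR-151-5p (1030 and 299.1 against 8.91 and 6.07 CPM) and miR-16-5p (764.7 and 562.7 against 11.2 and 67.3 CPM). The counts of lists that follow stand beside 126 of 277 for all 5p arms and 30 of 262 for all 3p arms. Of 8 5p arms of the let-7 family 1 was called higher, let-7c-5p, and 7 lay above both knockout libraries, with a median log2 change of 3.97. Of 10 5p arms of the growth-promoting miR-17-92 group, paralogs included, none was called by edgeR, 3 had an unadjusted p under 0.05, and 9 lay above both knockout libraries, with a median of 5.602. Of 36 5p arms of miRNAs abundant in fibroblasts and mesenchymal cells 3 were called higher (miR-31-5p, miR-99b-5p and miR-24-5p) and 26 lay above both knockout libraries, with a median of 5.02. Their 33 3p arms gave 5 above both knockout libraries and 6 below both, with a median of 0.31.

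Arms of miRNAs made by other routes gave low levels. miR-451a-5p, which is cut by Ago2 in place of Dicer, stood at 7.08 and 3.78 CPM with D1320A and 0 and 2.82 CPM in the knockout. Its log2 change of 1.94 (SE 5.51) was not called and turned to -1.38 under TMM and -2.22 under DESeq2. miR-320-3p, from a precursor made without Drosha, stood at 3.38 and 2.87 against 6.78 and 3.32 CPM. miR-484-5p, of the same kind, stood at 0.397 and 0.329 against 1.45 and 0.438 CPM with D1320A lower in both libraries, and neither was called by edgeR. The loop product of miR-320, of the kind described below, stood at 54.7 and 18.97 CPM with D1320A and 0 and 0 CPM in the knockout.

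**Figure D2:**
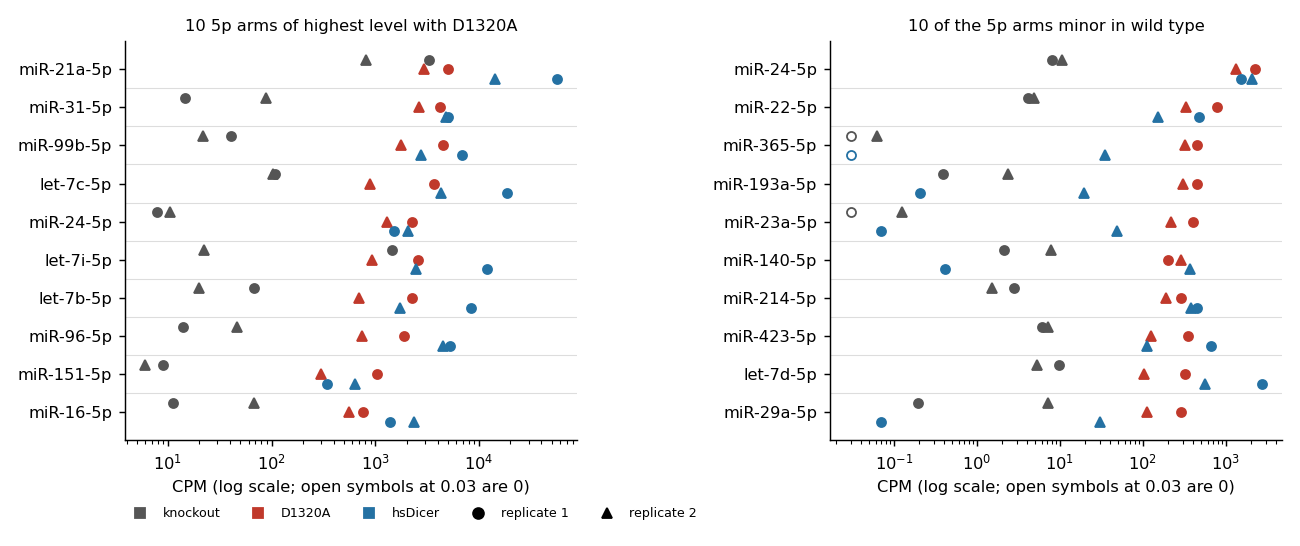
CPM in each library of knockout, D1320A and hsDicer cells, on log axes, for the 10 5p arms of highest mean level with D1320A (left) and the 10 minor 5p arms of highest mean level with D1320A (right); circles are replicate 1, triangles replicate 2, and open symbols at 0.03 stand for 0. D1320A lies above the knockout for each arm except miR-21a-5p and let-7i-5p, where they overlap; for miR-365-5p, miR-193a-5p, miR-23a-5p and miR-29a-5p it also lies above both hsDicer libraries.

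5p arms that are minor in wild type were higher than in the knockout about as often as other 5p arms. Of 72 such arms tested, 39 lay above both knockout libraries and none below both, and of the 153 5p arms that are not minor 84 lay above both and 2 below. The median log2 change was 6.95 for the minor arms and 4.26 for the others, a difference that was not tested. Only miR-24-5p of the minor arms was called by edgeR over all 16 libraries, and 30 were called higher in the fit of the groups compared alone. Their summed level was 7333 and 4012 CPM with D1320A and 1137 and 106.1 CPM in the knockout; of the 1137 CPM, 1092 CPM were miR-350-5p, which had no read in knockout replicate 2.

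Several minor arms exceeded their level with intact human Dicer. Both D1320A libraries lay above both hsDicer libraries for 22 of the 72 minor 5p arms, for 9 of the 153 other 5p arms with a known wild-type share, and for 8.53% of all arms tested. All 22 were under 1 CPM in hsDicer replicate 1, and 13 of them had no read there. Within replicate 2 alone, 28 of the 72 were higher with D1320A than with hsDicer, and the rest were not. The same count was not made over all arms, so no share stands beside it. miR-365-5p stood at 442.5 and 318.8 CPM with D1320A, at 0 and 0.0626 CPM in the knockout and at 0 and 34.6 CPM with hsDicer. miR-193a-5p stood at 441.8 and 300.9 CPM, against 0.387 and 2.38 CPM in the knockout and 0.208 and 19.5 CPM with hsDicer. For both arms each D1320A value lay well above each hsDicer value. miR-23a-5p stood at 398.8 and 218.1 CPM, against 0 and 0.125 CPM in the knockout and 0.0694 and 48.2 CPM with hsDicer. miR-29a-5p, the minor arm of a miRNA known for targeting collagen transcripts, stood at 289.3 and 113.2 CPM, against 0.194 and 7.08 CPM in the knockout and 0.0694 and 30.1 CPM with hsDicer. None of these 4 was called by edgeR against the knockout, with adjusted p from 0.346 to 0.809.

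The other minor arms of high level did not lie above both hsDicer libraries. miR-22-5p stood at 780.6 and 328.2 CPM with D1320A, 4.07 and 4.82 CPM in the knockout and 473.0 and 150.4 CPM with hsDicer. miR-140-5p, of a cartilage miRNA, stood at 201.9 and 289.7 CPM against 2.13 and 7.77 CPM in the knockout. miR-214-5p stood at 284.2 and 187.9 CPM against 2.81 and 1.503 CPM, miR-423-5p at 344.1 and 124.1 against 6.10 and 7.08 CPM and let-7d-5p at 321.5 and 103.6 against 9.68 and 5.26 CPM. Each D1320A value of these arms lay above both knockout values, and none was called by edgeR.

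Within hairpins the minor arm became the one mainly read among reads counted as miRNA reads. Loop products are too long to be counted so, and the shares and ratios that follow leave them out. Their balance with the 5p arm is given further below. Over hairpins with a minor 5p arm and 20 or more reads in the library, the median 5p share was 96.7% (57 hairpins) and 98.1% (42 hairpins) with D1320A, 4.73% (24) and 11.2% (29) in the knockout and 0.0170% (29) and 9.32% (65) with hsDicer. In 49 of 57 and 39 of 42 of these hairpins the 5p arm held over 50% of the reads with D1320A. Hairpins entered by the reads of each library, so the sets differ between groups. With D1320A 54 and 39 of the 72 minor 5p arms had 20 or more reads by themselves, so these high shares follow in part from that rule. miR-22 gave 11790 and 3996 5p reads and 3556 and 1646 3p reads with D1320A, against 42 and 77 5p reads and 29646 and 7436 3p reads in the knockout. miR-24 gave 33840 and 15862 5p reads and 463 and 247 3p reads with D1320A, and its 5p arm held 98.7% and 98.5% of the hairpin's reads there, against 20.1% and 17.6% with hsDicer. The interaction of arm and group, tested with edgeR over 183 hairpins, called none at an adjusted p under 0.05, with 6 at an unadjusted p under 0.05; limma with a pseudocount of 5 called 2. The log2 ratio of 5p to 3p was higher with D1320A by a median of 4.43 over the 183 hairpins. Of the 6 hairpins with the most reads, miR-24 changed by 8.16 (SE 4.42) and miR-99b by 5.10 (SE 4.40), while miR-31 (-1.24, SE 4.02), miR-21a (-1.29, SE 7.15), let-7c (-1.39, SE 3.95) and let-7i (-2.37, SE 7.95) had changes below 0, each smaller than its error.

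**Figure D3:**
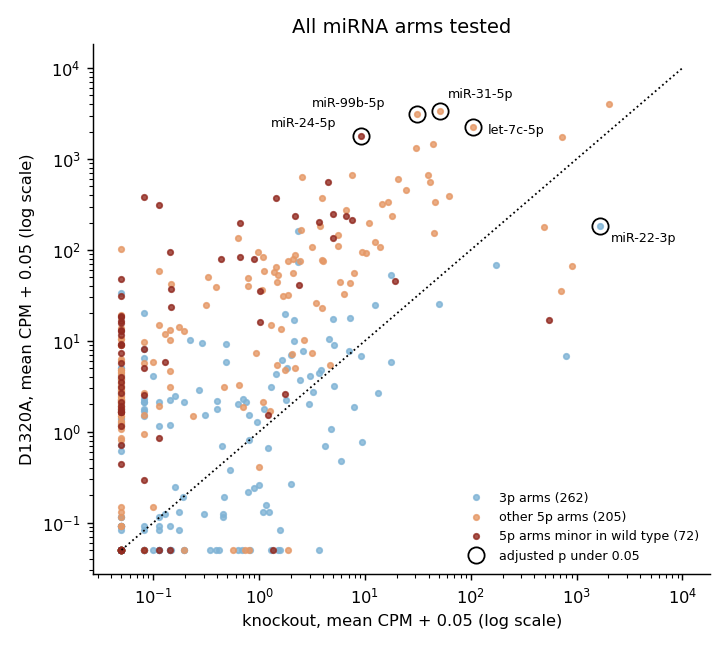
Mean CPM of each of the 539 arms tested in D1320A (vertical) against the knockout (horizontal), both with 0.05 added, on log axes; colours separate 3p arms, minor 5p arms and other 5p arms, rings mark the 5 arms called by edgeR, and the dotted line marks equal levels. Most 5p arms lie above the line, while 3p arms lie on both sides of it and miR-22-3p below it.

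Reads with the form of the other product were found as well. Reads of 27 nt or more that start within 2 nt of the base after the usual 3′ end of the 5p arm, and so run through the loop towards the 3p arm, numbered 627688 and 173277 with D1320A, or 41557 and 14231 CPM. The knockout gave 4.74 and 21.04 CPM, the double mutant 0.972 and 28.8 CPM, hsDicer 2.77 and 18.96 CPM, wild type 1.45 and 16.5 CPM and D1709A 25.1 and 35.5 CPM. Even the smaller D1320A value lay far above every value of these groups; the exact permutation test against the knockout gives p = 0.333, the smallest it can give. miR-31 made up 60.8% and 66.4% of these reads, and without it D1320A gave 16274 and 4782 CPM against 1.36 and 16.4 CPM in the knockout.

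**Figure D4:**
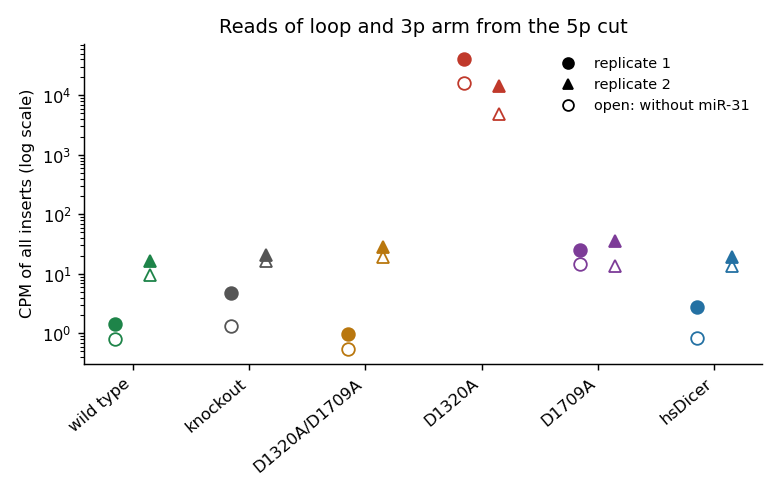
CPM of reads of 27 nt or more that run from the 5p cleavage site through the loop into the 3p arm, per library on a log axis, for 6 groups; filled symbols are all hairpins, open symbols leave out miR-31. D1320A lies at 41557 and 14231 CPM, and the libraries of the 5 other groups shown lie between 0.972 and 35.5 CPM.

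Such reads came from many hairpins. Of 173 hairpins with a usual 5p end, 119 had any such read with D1320A, and 75 had 20 or more in both D1320A libraries. All 75 lay above both knockout libraries, and 57 had none in either knockout library. The 75 were chosen by their D1320A reads, so this count is not a test of the difference from the knockout. The most common whole read of 6 of these hairpins in replicate 2 is printed below, as the DNA letters of the read, with bases of the RefSeq 3p arm in capitals; lower case before them is loop, and the last lower-case base of miR-16 and miR-140 lies past the 3p arm. miR-31 and miR-16 are shown because they had the highest mean CPM of such reads, miR-30a and miR-140 because their 5p ends lie inside the cut, and miR-22 and miR-193a because both their products shift by 1 nt.
miR-31: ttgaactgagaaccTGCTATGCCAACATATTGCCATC
miR-16: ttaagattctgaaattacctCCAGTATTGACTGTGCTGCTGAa
miR-30a: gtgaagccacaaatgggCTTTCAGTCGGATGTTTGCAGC
miR-140: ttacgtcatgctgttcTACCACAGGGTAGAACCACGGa
miR-22: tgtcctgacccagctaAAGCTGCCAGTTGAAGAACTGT
miR-193a: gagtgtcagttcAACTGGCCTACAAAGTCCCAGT
The miR-31 read of 37 nt holds 14 loop bases and all 23 bases of miR-31-3p, and was seen 94311 times among 115051 whole reads of that kind. Of the 62 hairpins with a usual 3p end that a whole read of replicate 2 can reach (46 nt or less), 59 had over 80% of these reads end within 2 nt of the usual 3p end. Not every such read spans the 3p arm: the most common whole read of let-7c held 11 of its 22 bases and that of miR-374b 15 of 22. In replicate 1 inserts are seen whole only up to 36 nt, so lengths were read from replicate 2, where 37 nt was the commonest length with 59.7% of such reads, nearly all of them the miR-31 read printed above. The 5p cleavage site lay 22 nt from the usual 5′ end in 40 of the 75 hairpins, 23 nt in 19, 24 nt in 11 and 20, 21 or 26 nt in the rest.

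The balance of the products differed between hairpins. Among 66 hairpins that also had 20 or more 5p reads in both libraries, the loop product exceeded the 5p arm in both libraries in 13 and lay below it in both in 44. Loop products were counted from a single hairpin copy of each name, but 5p reads can also match other copies. For let-7c, 53897 and 10275 5p reads with D1320A matched both copies, while loop products were those of Mirlet7c-2. What this does to the balance was not tested. miR-31 gave 25283 and 9449 CPM of the loop product and 4193 and 2620 CPM of the 5p arm. miR-99b gave 14.5 and 0 CPM of the loop product and 4479 and 1770 CPM of the 5p arm. For Mir24-2 the values were 28.3 and 4.27 against 2172 and 1235 CPM. Lengths of the loop products differ between hairpins and the gel selection spanned 15 to 50 nt; the part of that selection in the balance was not tested.

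The 5p reads kept their outer end, and by medians over arms their cut end was less uniform than with hsDicer. Over 58 5p arms with 20 or more reads in every D1320A and hsDicer library, a median of 76.3% and 72.1% of reads ended at the usual 3′ end with D1320A, against 89.2% and 78.6% with hsDicer, without overlap (exact permutation p = 0.333, the smallest possible). The group means of these medians differed by -9.68 percentage points (D1320A minus hsDicer), by -1.90 points when means over arms were taken, where exact p was 0.667, and by -1.29 points without hsDicer replicate 1. Single arms went both ways: 20 of the 58 were lower in both D1320A libraries and 9 were higher in both. miR-31-5p was among the latter, at 86.3% and 80.01% with D1320A against 55.4% and 55.0% with hsDicer. The usual 5′ end, which Drosha makes, was kept by a median of 99.04% and 99.8% of reads with D1320A and 100% and 99.6% with hsDicer. The median of the mean read length was 22.05 and 22.22 nt with D1320A and 22.03 and 22.19 nt with hsDicer. Over 41 5p arms with enough reads in both groups, the knockout had 85.1% and 45.9% at the usual 3′ end and D1320A 78.5% and 75.02%. Against wild type, over 67 such arms, the groups overlapped, at 75.6% and 70.9% with D1320A and 92.6% and 72.8% in wild type.

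The positions of both products at the cut were set side by side. Loop products were counted only within 2 nt of the usual site and at their own most used start, and 5p ends over a wider range and at that same place, so the shares are not a test of which end is more uniform. Over 66 hairpins a median of 95.8% and 100% of loop products started at the hairpin's most used start, while 78.0% and 69.4% of its 5p reads ended at the base before it. The remaining 5p reads were mostly shorter, with a median of 16.4% and 18.2% ending before the cut and 1.68% and 0.0573% running past it. The most used 5p end abutted the most used loop start in 52 and 50 of the 66 hairpins, lay before it in 12 and 13 and past it in 2 and 3. These counts describe one product by the other and are not independent of the choice of the 66 hairpins.

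In some hairpins both products lay away from the usual site. The loop product started away from the usual site in 15 and 17 of the 66 hairpins, and in 7 of each the most used 5p end lay at the same place. In both libraries these included miR-15a, miR-22, miR-193a, miR-361 and miR-574, each 1 nt later. For miR-15a and miR-361 the most used 5p end lay past the usual one with hsDicer as well, so that such places are not all particular to D1320A. In miR-22 a 1 nt later cut was used by 97.9% and 100% of loop products. Of miR-22-5p reads 57.8% and 80.5% ended there, giving the 22 nt of RefSeq's sequence. With hsDicer 99.9% and 65.3% of the reads ended at the usual end, 1 nt earlier, and 0.0587% and 34.7% ran past it. In wild type 38.5% and 34.5% of the reads also ran past the usual end. In miR-193a 100% of the loop products in both libraries started 1 nt later, and 87.3% and 78.0% of 5p reads ended there; with hsDicer 46.7% of 366 reads in replicate 2 also ran past the usual end (3 reads in replicate 1), and in wild type 0.134% and 49.2%. miR-30a differed: 98.2% and 99.1% of loop products started at the usual site, while 92.96% and 86.8% of its 5p reads were shorter. For miR-140 the most used loop start lay 1 nt later (74.5% and 83.8%), the most used 5p end lay 1 nt before the usual end, and 68.4% and 75.5% of 5p reads stopped short of the loop start.

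**Figure D5:**
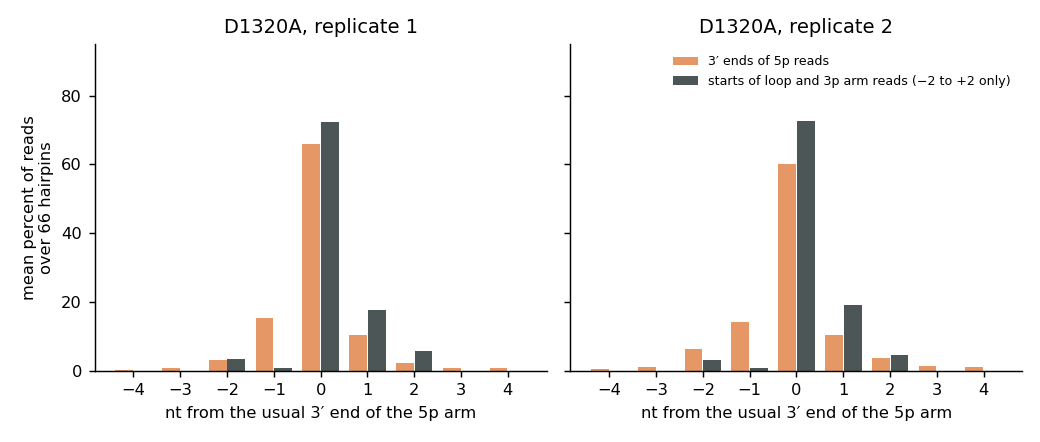
Mean percent of 5p reads by their 3′ end (light bars) and of loop products by their start (dark bars, counted only from −2 to +2) at each distance in nt from the usual 3′ end of the 5p arm, over 66 hairpins, for each D1320A library. At 1 nt before the usual end lie 15.3% and 14.2% of 5p ends but 0.834% and 0.810% of loop starts.

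Some 5p reads ran past the cut. Of reads that begin at the usual 5′ end and either stop within 2 nt of the cut or run 5 nt or more past it, 86.3% and 84.7% stopped at the cut with D1320A. In the knockout these shares were 63.8% and 10.9%, with the double mutant 55.2% and 30.1%, with D1709A 14.5% in both, and with hsDicer 99.2% and 91.9%. D1320A lay above both knockout libraries and below both hsDicer libraries.

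The 3p reads left with D1320A often lacked the usual loop-side end. Over 14 3p arms with 20 or more reads in every D1320A and hsDicer library, a median of 28.8% and 16.5% of reads began at the usual 5′ end with D1320A and 99.99% and 97.6% with hsDicer. With D1320A 7 of the 14 arms were under 50% in both libraries, 3 were over 90% in both, and 4 lay on both sides of 50%. Over 12 such arms the knockout gave 100% and 98.8% and D1320A 37.7% and 30.7%. miR-31-3p stood at 183.5 and 142.6 CPM with D1320A and 0.0968 and 4.45 CPM in the knockout, and 1.91% and 0% of its reads began at the usual 5′ end, with a mean length of 23.6 and 24.6 nt. miR-29a-3p stood at 65.1 and 41.1 CPM against 24.9 and 10.2 CPM, with 14.9% and 2.40% at the usual 5′ end; its log2 change of 1.60 was not called and turned to -1.46 under TMM and -2.26 under DESeq2. miR-22-3p, miR-29b-3p and miR-24-3p differed, with 91.2% and 95.4%, 95.5% and 99.8%, and 99.8% and 100% at the usual end. miR-29b-3p stood at 99.9 and 36.9 CPM with D1320A against 124.3 and 219.4 CPM in the knockout. miR-5121-3p, whose hairpin overlaps an exon of the ribosomal protein gene Rpl13a and an intron of Gm45713, stood at 120.0 and 26.5 CPM against 0.194 and 4.38 CPM, and at 244.8 and 88.5 CPM with the double mutant.

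Against the double mutant, which differs from D1320A by the loss of RNase IIIB, 3 arms were called higher by edgeR (0.557% of 539) and none lower. let-7c-5p stood at 13.1 and 74.0 CPM with the double mutant, a log2 difference of 5.71 (SE 1.27), adjusted p = 0.00182 by edgeR. miR-99b-5p stood at 6.20 and 32.2 CPM there and let-7i-5p at 38.3 and 31.3 CPM, log2 differences of 7.35 (SE 1.52) and 5.66 (SE 1.45), adjusted p = 0.000707 and 0.0176 by edgeR. Both D1320A libraries lay above both double mutant libraries for 118 of 277 5p arms, 37 of 72 minor 5p arms and 30 of 262 3p arms. The knockout and double mutant comparisons share the D1320A libraries.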

How the data were processed

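The deposited files hold counts: per the file contents the authors listed each distinct read with its count, untrimmed (41 nt reads in replicate 1, 51 nt in replicate 2). Per the labels, RNA of 15 to 50 nt was cut from a gel. Tools and builds of the authors' processing are not given in the labels. The 3′ adapter of the labels was removed where 12 bases matched, or 5 or more at the read end. Inserts of 18 to 26 nt were matched exactly to 1174 hairpins of GENCODE M21 (GRCm38) and given to an arm by the hairpin midpoint. Reads shared by different names, or by copies that disagree on the arm, were left out; 576 arms were counted and 539 with 20 or more reads over all libraries tested. Usual ends were those most used in wild type (10 or more reads). Tests were edgeR 4.0.16 quasi-likelihood fits (R 4.3.3) over all 16 libraries, 2-sided, with all inserts of 15 nt or more as library size; the common biological coefficient of variation was 2.10, and each SE was obtained from the log2 change and its F statistic. Library totals and end shares were compared with exact permutation tests. Reads were not counted as molecules. limma 3.58.1 and DESeq2 1.42.0 served as alternatives, Python 3.11.15 for counting. Fits were checked on simulated data. Arms were named by rank: the 10 5p arms, 10 minor 5p arms and 5 3p arms of highest mean CPM with D1320A, called arms of 10 CPM or more, 2 to 4 list members, as well as miR-484, miR-320 and miR-451a. Members and lists were chosen with earlier results of these data known; arms singled out by their ends or loop products were chosen after their values were seen. Sequences are RefSeq's, matched by name for 216 of 277 5p arms.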

Additional observations from a re-analysis of the deposited data

How the results depend on the processing

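The number of arms called against the knockout was 5; it was 8 with TMM scaling, 0 scaled to snoRNA and snRNA reads, 45 with DESeq2, 8 among arms of 10 CPM or more, 75 with only the groups compared, 69 with both of these, and 0 to 3 without 1 library. 5p arms called higher numbered 4, and 0, 0, 6, 8, 70, 64 and 0 to 3 under these settings in turn. Minor 5p arms called higher numbered 1, and 0 with TMM, 0 with snoRNA scaling, 2 with DESeq2, 30 with only the groups compared, 20 with the 10 CPM minimum too, 0 with reads of 15 to 30 nt and 3′ tails, 0 with minor set at under 20%, and 0 to 0 without 1 library. 3p arms called numbered 1, and 4 with TMM, 0 with snoRNA scaling, 33 with DESeq2, 0 at 10 CPM, 5 with only the groups compared, 4 with both, and 0 to 1 without 1 library. Against the double mutant 3 arms were called, and 9 with TMM, 0 with snoRNA scaling, 58 with DESeq2, 16 at 10 CPM, 32 with only the groups compared, 33 with both, 5 with arms by RefSeq position, 7 without 5′ adapter products in the library size, and 0 to 3 without 1 library. The 5p to 3p ratio called 0 hairpins, and 2 with limma and a pseudocount of 5.

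Same-numbered replicates of D1320A and the group it was compared with did not deviate together, so the numbers were not taken as pairs. The correlation was 0.041 for D1320A and knockout and 0.070 for D1320A and the double mutant, 2 pairs each. It does not speak for the other groups, and replicate number also goes with read length (41 and 51 nt). With the replicate block 10 arms were called against the knockout, 9 of them 5p arms that were higher, and 16 against the double mutant. With the block, the 10 CPM minimum and only the groups compared, the counts were 0 against the knockout, 0 for 5p arms, 0 for minor 5p arms, 0 for 3p arms and 1 against the double mutant.

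The log2 change turned with TMM and DESeq2 for miR-21a-5p (-2.07 and -2.87), let-7i-5p (-1.77 and -2.61), miR-29a-3p (-1.46 and -2.26) and miR-451a-5p (-1.38 and -2.22), and for miR-484-5p to 1.24 with 3′ tails allowed. Both scalings set the median of all arms to 0. The 4 arms that rose stayed positive there (TMM 2.78 for miR-31-5p, 3.51 for miR-99b-5p, 1.17 for let-7c-5p and 4.42 for miR-24-5p) without a call. The 5p and 3p sums kept their direction without 1 library (log2 differences of 1.62 to 4.09 and -2.27 to -0.0231). The usual 5′ end of 5p reads differed from hsDicer by -0.34 points, and by -0.706 to 0.122 without 1 library; it reversed to 0.0807 and 0.122 without D1320A or hsDicer replicate 1. The mean length differed by 0.024 nt, by -0.149 nt with means over arms, and by -0.189 to 0.108 nt without 1 library. The causes were not tested. With 2 libraries a group the exact test cannot go below 0.333, and the low depth of miRNA reads in the knockout limits every fold change given.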

Other observations

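Knockout replicate 1 held several arms at a level that the second knockout library did not share. miR-181a-5p stood at 1821 CPM there and at 2.94 CPM in knockout replicate 2, against 76.9 and 57.0 CPM with D1320A. miR-20a-3p stood at 1571 and 2.25 CPM, miR-10b-5p at 1412 and 0 CPM, miR-350-5p at 1092 and 0 CPM and miR-125a-5p at 955.3 and 34.4 CPM in these knockout libraries. These arms were singled out after their values were seen.

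Some long reads with D1320A started farther into the loop than the 2 nt counted above. Reads starting 7 nt later numbered 5051 and 2500 for miR-671 and 4481 and 712 for miR-92. Reads starting 8 nt later numbered 2346 and 384 for miR-30a. Over all hairpins, starts 7 nt later numbered 11569 and 3625 with D1320A and 29 and 295 in the knockout. Starts 8 nt later numbered 6095 and 845 with D1320A and 0 and 178 in the knockout.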
